A study of Mus musculus with 10 samples.

Results

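Open chromatin peaks that were strong and about equally strong in mouse brain and lung were described across 10 small libraries of laser-captured nuclei. They were chosen by their mean level in reads per 1000000 reads in nuclear peaks (RPM): a peak had to lie on an autosome, to rank in the top 10% of nuclear peaks in brain and in lung, and to have a ratio of the brain mean to the lung mean between 0.67 and 1.5. This gave 2467 peaks of the 37511 nuclear peaks in the table, or 6.58%, hereafter the strong even peaks. The lowest level that reached the top 10% was 67.3 RPM in brain and 64.7 RPM in lung. Of the 2799 autosomal peaks that were strong in both tissues, 88.1% met the ratio. Because level and ratio chose the peaks, both are given as a description with no test.

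The nuclei came from fresh frozen tissue sections of wild-type (WT) C57BL/6J mice, a common inbred strain, and were cut by the transposase Tn5 on the slide before a laser collected them. The groups were brain at 200 nuclei (2 libraries), brain at 50 nuclei (2 libraries), lung at 200 nuclei (3 libraries) and lung at 50 nuclei (3 libraries), all of 1 genotype and with no treatment. The larger pools came as 10 captured areas of about 20 nuclei and the smaller ones as 50 single captures, so pool size cannot be told apart from capture mode. Ages, sexes and the number of animals are not given in the labels, which speak of technical duplicates, so p-values measure only the spread between these libraries. Nuclei were captured at random, so each library mixes cell types, and a smaller share of open cells cannot be told apart from less cutting per cell.

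ATAC-seq reads report where Tn5 could reach the DNA. Promoters of genes used by nearly every cell often lie in CpG islands, stretches rich in unmethylated CG dinucleotides, and are kept free of nucleosomes in many tissues. Factors such as NRF1, NF-Y, SP1, YY1, the ETS family and BANP are known to bind short motifs in such promoters, whereas many enhancers open in few cell types.

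Total reads in peaks ranged from 5519395 to 10973796 in brain and from 573596 to 4083252 in lung. The 2 mitochondrial peaks took 93.4% to 95.8% of them in brain and 24.7% to 58.0% in lung, which left 319307 to 465489 nuclear reads in brain libraries and 340697 to 3075377 in lung libraries. Summed over the peaks of neuron marker genes, brain libraries had 150 to 227 RPM and lung libraries 2.94 to 20.5 RPM, and Elavl3 had no read in lung. For endothelial markers the sums were 77.7 to 101 RPM in brain and 177 to 364 RPM in lung. Summed alveolar type 1 markers reached 53.2 to 105 RPM in brain and 114 to 173 RPM in lung, while alveolar type 2 markers reached 213 to 285 RPM in brain and 114 to 231 RPM in lung. Oligodendrocyte markers summed to 135 to 200 RPM in brain and 2.94 to 65.7 RPM in lung. Of the astrocyte list only 1 gene had a peak, with 30.1 to 65.2 RPM in brain and 0 to 12.2 RPM in lung. Immune markers, with peaks at 1 gene, had 30.1 to 57.5 RPM in brain and 35.1 to 62.6 RPM in lung. The neuronal, oligodendrocyte, astrocyte, endothelial and alveolar type 1 lists thus followed the labelled tissues. The alveolar type 2 list did not, and the immune list overlapped between the tissues. Replicates 2 and 3 of lung at 50 nuclei stood apart: 267 and 426 strong even peaks were there more than 2-fold off their own mean over the libraries, against 2 to 36 in the other 8 libraries.

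Promoters of 6 named strong even peaks are printed as examples and are not a random sample of the set. How often each motif occurs over the whole set is given below. They are taken from RefSeq on GRCm38.p6, from 160 bases before the annotated start to 24 bases after it, 5′ to 3′ on the strand of the gene. Capitals mark every match to 9 short motifs that were searched on both strands. Khsrp encodes an RNA-binding protein of splicing and mRNA decay and has the highest of these peaks. Crtc1, a coactivator of CREB, has one of the most even. Nfya encodes a subunit of NF-Y, Psma2 a subunit of the proteasome, Ube2n a ubiquitin-conjugating enzyme and Polr2a the largest subunit of RNA polymerase II.
Khsrp, chr17:57031483-57031667, minus strand: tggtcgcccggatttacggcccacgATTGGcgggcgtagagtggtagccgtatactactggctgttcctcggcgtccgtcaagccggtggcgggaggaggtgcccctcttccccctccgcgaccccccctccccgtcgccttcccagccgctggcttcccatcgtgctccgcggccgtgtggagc
Crtc1, chr8:70439549-70439733, minus strand: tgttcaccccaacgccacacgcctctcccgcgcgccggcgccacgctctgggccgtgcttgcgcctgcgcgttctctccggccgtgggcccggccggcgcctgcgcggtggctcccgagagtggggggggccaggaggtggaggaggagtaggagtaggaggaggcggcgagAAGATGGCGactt
Nfya, chr17:48409796-48409980, minus strand: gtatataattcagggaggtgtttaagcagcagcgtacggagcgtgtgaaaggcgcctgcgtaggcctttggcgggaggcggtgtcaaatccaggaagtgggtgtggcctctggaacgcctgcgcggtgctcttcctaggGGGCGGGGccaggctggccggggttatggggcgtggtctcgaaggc
Psma2, chr13:14613082-14613266, plus strand: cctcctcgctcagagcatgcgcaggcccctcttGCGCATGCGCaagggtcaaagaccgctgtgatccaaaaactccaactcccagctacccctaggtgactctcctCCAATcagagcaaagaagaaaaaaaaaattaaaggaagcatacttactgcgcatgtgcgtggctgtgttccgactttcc
Ube2n, chr10:95515002-95515186, plus strand: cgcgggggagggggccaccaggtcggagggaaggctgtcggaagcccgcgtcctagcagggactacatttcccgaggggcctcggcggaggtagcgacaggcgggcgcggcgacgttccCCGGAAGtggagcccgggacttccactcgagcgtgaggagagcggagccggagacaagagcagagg
Polr2a, chr11:69758609-69758793, minus strand: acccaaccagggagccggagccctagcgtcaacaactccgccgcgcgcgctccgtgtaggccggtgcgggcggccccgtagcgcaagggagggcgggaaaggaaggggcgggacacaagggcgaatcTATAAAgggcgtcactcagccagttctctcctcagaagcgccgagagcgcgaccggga
With the start as position 0, the Khsrp promoter held an NF-Y motif (CCAAT or its complement ATTGG) whose first base lay at -135. The Crtc1 window had the YY1 motif AAGATGGCG at 12, just inside the transcript. Psma2 held the NRF1 motif GCGCATGCG from -127 and, overlapping it on the other strand, from -126, and an NF-Y motif at -54. Ube2n held the ETS motif CCGGAAG at -41, Nfya the SP/KLF motif in its complement GGGCGGGG at -21, and Polr2a the TATA motif TATAAA at -33. These matches are letters in a window, not measured binding.

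Strong even peaks lay mostly at gene starts. The centre of 1951 of the 2467 peaks (79.1%) was within 1000 bp of the RefSeq start of a protein-coding gene, and 317 more (12.8%) were within 1000 bp of either annotated end of a coding gene with no start entry so near. A further 44 lay at the start of a long non-coding RNA, 94 inside a gene body and 61 outside genes. No start was listed for chromosome 18, which held 60 of the peaks, nor for some genes elsewhere, such as Tbc1d17 and Tmbim6. Peaks at the starts of such genes could not be classed as starts, so the split between starts and ends depends on the annotation. Starts and ends together made up 91.9% of the strong even peaks, against 42.0% of all nuclear peaks. The share was 89.2% of the 332 autosomal peaks strong in both tissues with a ratio outside the range, 88.7% of the 924 strong in brain only and 52.2% of the 900 strong in lung only. Class was not used in the choice, but level was, and peaks strong in brain only came close to the same share. These are counts of peaks in 1 table and carry no test.

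**Figure D1:**
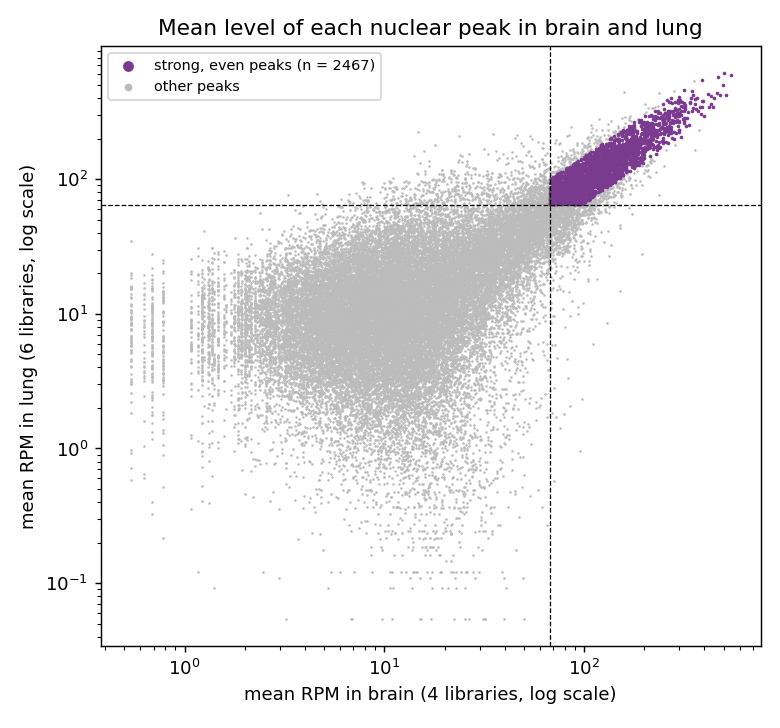
Mean RPM of each nuclear peak in brain (horizontal axis, 4 libraries) and in lung (vertical axis, 6 libraries), both on log scales. Dashed lines mark the top 10% at 67.3 RPM in brain and 64.7 RPM in lung, and the 2467 strong even peaks fill the band around equal levels above both lines. Peaks with a mean of 0 in either tissue are not drawn.

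**Figure D2:**
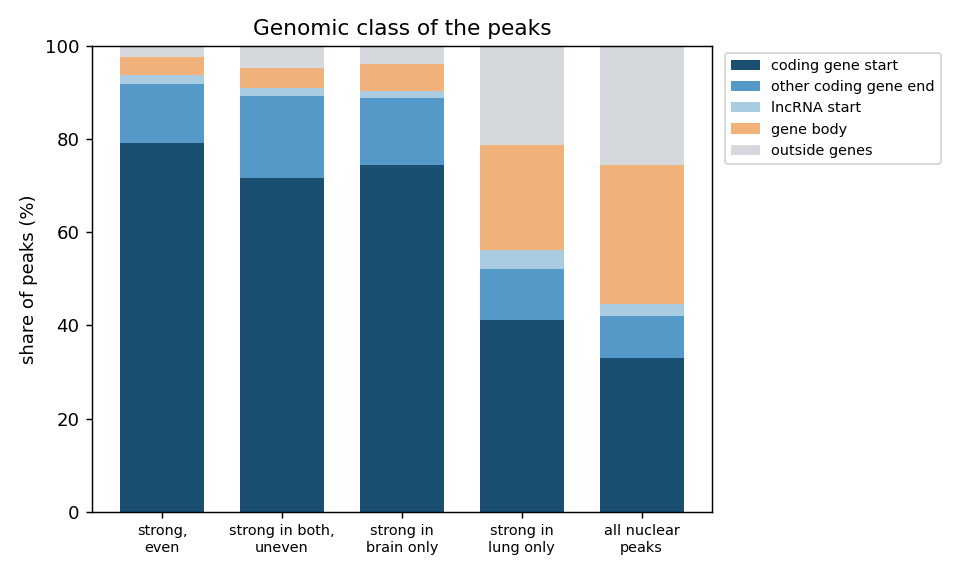
Share of peaks in each genomic class, in percent, for strong even peaks, strong uneven peaks, peaks strong in 1 tissue and all nuclear peaks. Coding gene starts and other gene ends make up 91.9% of the strong even peaks, 52.2% of those strong in lung only and 42.0% of all nuclear peaks.

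The peaks sat slightly upstream of the start. Over the 1951 peaks at starts the median distance from the start to the peak centre was -77 bp, the centre lay upstream in 75.6% and within 250 bp in 87.9%, and 93.6% covered a start. The other strong peaks were much alike: the centre lay upstream in 72.7% of the uneven ones, 62.2% of those strong in brain only and 75.5% of those strong in lung only, and 92.9%, 91.8% and 88.1% covered a start. All nuclear peaks at starts had their centre upstream in 57.9% and covered a start in 61.0%. A pair of genes that start back to back in opposite directions was found at 14.4% of the strong even peaks at starts, against 10.9% of the uneven ones, 11.1% of those strong in brain only, 7.55% of those strong in lung only and 8.67% of all peaks at starts. Examples are the peak between Hnrnpa2b1 and Cbx3, whose human counterpart is used in vectors as a ubiquitous chromatin opening element, and the peaks shared by Psma2 with Mrpl32, Tcp1 with Mrpl18 and Nfya with Oard1. A read in a shared peak cannot be given to either gene.

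Strong even peaks were wide. Their median width was 530 bp, with a range from 229 to 1363 bp, against 558 bp for the peaks strong in both tissues but uneven, 164 bp for all nuclear peaks, 423 bp for peaks strong in brain only and 399.5 bp for those strong in lung only. Width followed level: in 4 equal bins of the strong even peaks from low to high mean level, the median width was 433, 490, 550 and 682 bp. The uneven ones had 491, 506, 570.5 and 614 bp in these bins. In the lowest bin, with levels from 66.5 to 88.8 RPM, peaks strong in brain only had a median of 471.5 bp (n = 354) and peaks strong in lung only 422 bp (n = 269), so at like level the strong even peaks were not the widest. The part of the level in these widths was not tested.

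The widest lay at Setd5 (a SET-domain chromatin protein, chr6:113076062-113077425), Lnpep (an aminopeptidase, chr17:17624322-17625570) and Ccdc9 (chr7:16285659-16286868). The Setd5 peak was 1363 bp wide and averaged 261 ± 46.7 RPM in brain (SD, n = 4) and 307 ± 29.1 RPM in lung (SD, n = 6). The narrowest lay at Atp5d, a subunit of ATP synthase (chr10:80142184-80142413), outside genes at chr1:86525300-86525530 and at Rex1bd (chr8:70506356-70506596), with widths of 229, 230 and 240 bp.

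They were spread over all autosomes, from 5.05% of the nuclear peaks of chromosome 13 to 8.85% of those of chromosome 7. The median gap between neighbours was 262850 bp, and 3.43% of neighbouring pairs lay within 10000 bp. With each peak given to at most 1 gene, 2368 genes had a peak and 37 had more than 1, among them the clock genes Cry2, Nr1d2 and Tef and the ubiquitin ligase Rnf44, which had 3. Of 1005 RefSeq miRNA hairpins 8 overlapped a strong even peak, Mir484 among them.

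A total of 2285 RefSeq start windows, of 2076 genes, had their start inside a strong even peak. In these windows, which run from 250 bases before the start to 50 bases from it on, the median GC content was 64.0% and the median ratio of observed to expected CpG was 0.849, against 56.3% and 0.567 over all 21262 windows. The ratio passed 0.6, a usual mark of a CpG island, in 92.6% of them, against 87.5% of windows in strong uneven peaks, 87.4% of those in peaks strong in brain only, 83.2% of those strong in lung only, 74.6% of those in the remaining peaks and 24.2% of windows in no peak. Windows in strong even peaks had the highest share of these sets. The remaining peaks were below all the strong ones, and windows in no peak were by far the lowest. The remaining peaks are weak in both tissues, apart from 56 on X or Y that were strong in a tissue.

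Motif shares differed between strong even and remaining peaks more for some motifs than for others. Median GC content differed too, at 64.0% in windows of strong even peaks, 60.7% in those of the remaining peaks and 56.3% in all windows. Its part in the motif shares was not tested. NF-Y motifs were in 53.4% of the windows in strong even peaks, against 34.1% in the remaining peaks, 35.9% in windows with no peak and 38.2% in all windows. The SP/KLF motif CCCCGCCC was in 45.1%, against 33.1% in the remaining peaks and 23.6% in all windows. BANP (CTCGCGAGA) was in 3.06%, against 1.40% in the remaining peaks and 0.964% in all windows. For ETS the share was 24.5%, against 21.7% in the remaining peaks and 11.6% in all windows. NRF1 was in 5.82%, against 4.43% in the remaining peaks and 2.35% in all windows, and YY1 in 4.16%, against 3.73% and 1.83%. The CRE palindrome TGACGTCA was in 4.73%, against 3.69% in the remaining peaks and 2.23% in all windows. The E-box TCACGTGA was in 2.32%, against 1.92% in the remaining peaks and 1.23% in all windows. TATAAA was in 4.11%, against 6.24% in the remaining peaks and 12.6% in all windows. Other strong peaks were below these shares for some motifs and above them for others. Windows of strong uneven peaks held NF-Y in 55.0%, SP/KLF in 43.5%, the CRE in 6.27% and the E-box in 5.17%, but ETS in 17.3%, NRF1 in 3.69% and YY1 in 1.85%. Those of peaks strong in brain only held ETS in 23.4%, NF-Y in 49.7%, SP/KLF in 42.8% and the E-box in 3.02%. Those of peaks strong in lung only held NRF1 in 6.68% and the E-box in 3.74%, but NF-Y in 40.9%, ETS in 19.0% and YY1 in 2.14%.

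The 8 highest peaks included regulators of transcription, RNA and protein turnover. Khsrp (chr17:57031487-57032350) had 544 and 586 RPM in brain at 200 nuclei and 495 and 536 RPM in brain at 50 nuclei, against 411, 599 and 750 RPM (lowest, median and highest of 6) in lung. The brain libraries all fell inside the range of the lung ones. Sp1, which encodes a factor that binds GC boxes (chr15:102405291-102406421), had 474 and 503 RPM in brain at 200 nuclei and 457 and 583 RPM in brain at 50 nuclei, against 455, 645 and 708 RPM in lung. Cic, a transcriptional repressor downstream of receptor kinases (chr7:25267379-25268429), had 481, 468, 402 and 510 RPM in brain, against 473, 562 and 738 RPM in lung. Where 4 brain values stand together, the first pair is from 200 nuclei and the second from 50 nuclei. At Sp1 and Cic the lung median was above every brain library and the groups overlapped. Dnpep, an aspartyl aminopeptidase (chr1:75317016-75318094), averaged 494 ± 90.5 RPM in brain (SD, n = 4) and 498 ± 59.3 RPM in lung (SD, n = 6).

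Ubxn6, a cofactor of the ATPase VCP (chr17:56078923-56079748), had 436, 453, 350 and 323 RPM in brain, against 468, 541 and 633 RPM in lung, and its groups did not overlap. Dcaf6, a substrate receptor of a cullin ubiquitin ligase (chr1:165460309-165461400), had 494, 567, 490 and 492 RPM in brain, against 373, 430 and 455 RPM in lung, again without overlap but with brain above. So a ratio inside the range, 0.716 at Ubxn6 and 1.21 at Dcaf6, did not mean that the libraries of the tissues mixed. Fkbp2, a prolyl isomerase of the endoplasmic reticulum (chr19:6979609-6980642), averaged 479 ± 45.4 RPM in brain and 420 ± 56.9 RPM in lung. Rap2a, a small GTPase of the Ras family (chr14:120477327-120478400), averaged 463 ± 58.9 RPM in brain and 435 ± 52.0 RPM in lung (SD, n = 4 and 6).

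Over the 2467 peaks the median level was 115 RPM in brain and 111 RPM in lung, and together they took 29.7% to 34.1% of the nuclear reads of brain libraries and 32.0% to 33.3% of those of lung libraries. The ratio of brain to lung had a median of 1.02. It lay between 0.8 and 1.2 at 1613 peaks (65.4%), below at 334 (13.5%) and above at 520 (21.1%).

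The levels varied less over the libraries than those of all nuclear peaks, but counting error was also smaller. The coefficient of variation (CV, SD over mean) over the 10 libraries had a median of 0.260 at the strong even peaks and 0.773 at all nuclear peaks. Counting error alone would give them medians of 0.128 and 0.373. The part of counting error in the lower CV of the strong even peaks was not tested. The ratio limit bounds the part of this CV that comes from the tissues, and the CV within a tissue is free of it: the median was 0.189 within brain and 0.271 within lung, against 0.189 and 0.297 at the strong uneven peaks. At levels from 66.5 to 88.8 RPM, strong even peaks had a median CV within brain of 0.227, against 0.208 at peaks strong in brain only. Within lung it was 0.326, against 0.309 at peaks strong in lung only. So at like mean level over both tissues the strong even peaks had no lower CV within a tissue than peaks strong in that tissue only, whose level there was by choice the higher. In the same 4 bins from low to high level the median CV over 10 libraries was 0.303, 0.282, 0.251 and 0.209.

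Of the 2467 peaks 1735 (70.3%) stayed within 2-fold of their own mean in all 10 libraries and 97.2% in at least 9. Those shares were 37.7% and 85.2% for the strong uneven peaks, whose tissues differ by choice, and 9.18% and 20.5% for all nuclear peaks. At least 1 read was found in all 10 libraries at 2458 strong even peaks (99.6%), against 99.4% of the uneven ones, 86.5% of those strong in brain only, 96.3% of those strong in lung only and 35.0% of all nuclear peaks. High level was part of the choice.

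Most of the departures came from 2 libraries. Peaks more than 2-fold off their own mean numbered 2 to 36 in brain libraries, and 5, 10 and 5 in lung at 200 nuclei. In lung at 50 nuclei they numbered 34, 267 and 426 in replicates 1, 2 and 3. The median of the absolute log2 deviation was 0.37 in replicate 2 and 0.45 in replicate 3 of lung at 50 nuclei, and 0.18 to 0.24 in the other 8 libraries. Replicates 2 and 3 were also the only libraries in which some strong even peaks had no read, 2 and 7 of them, where 0 reads allow up to 8.81 and 5.48 RPM (3 reads, counting error only). Their nuclear totals were 340697 and 547792 reads. The shallowest library, brain at 50 nuclei replicate 2, had 319307 nuclear reads and 6 such departures. The part of depth in the departures was not tested. If the rule is applied without these 2 libraries, 2564 peaks qualify, and 2278 of them (92.3% of the 2467) are shared.

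**Figure D3:**
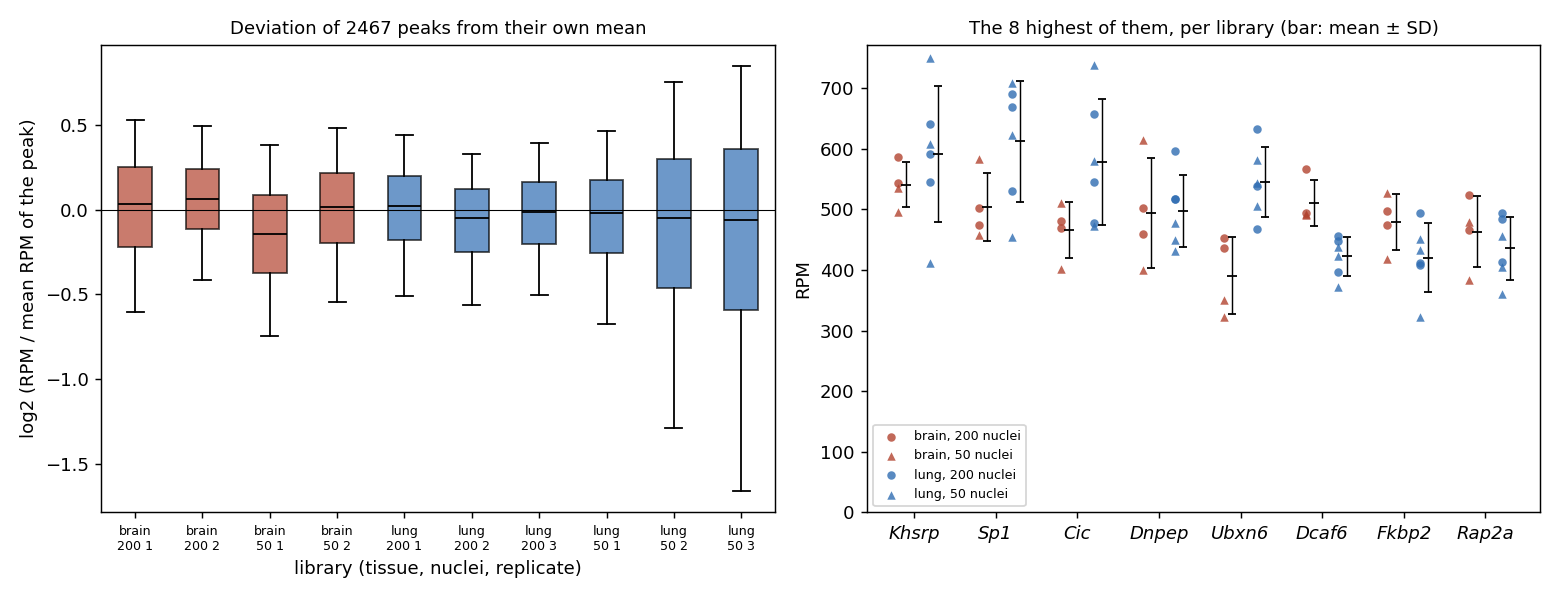
Left, log2 of the RPM of each strong even peak over its own mean, by library (box: quartiles, line: median, whiskers: 5th to 95th percentile, zeros left out), with brain in red and lung in blue. Right, RPM per library of the 8 highest peaks with mean and SD per tissue. The boxes of lung at 50 nuclei replicates 2 and 3 are the widest, with a median absolute deviation of 0.37 and 0.45.

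The 6 most even peaks had CVs from 0.0761 to 0.0924, where counting error alone would give them 0.0690 to 0.153. Tbc1d17, a GTPase activator of Rab proteins (chr7:44848530-44849306), had 301, 318, 271 and 310 RPM in brain, against 310, 327 and 364 RPM in lung, and a CV of 0.0761 over the 10 libraries. Evi5l, another such activator (chr8:4165918-4166565), had 429, 372, 383 and 382 RPM in brain, against 340, 376 and 438 RPM in lung. Crtc1 (chr8:70439486-70439917) had a low level, with 82.7, 85.9, 71.1 and 75.2 RPM in brain, against 68.2, 79.2 and 87.8 RPM in lung. In each the tissues overlapped. Tmbim6, an inhibitor of cell death in the endoplasmic reticulum (chr15:99392669-99393128), Spcs2, a subunit of signal peptidase (chr7:99858771-99859214), and Lrch4, a leucine-rich repeat protein (chr5:137628488-137629205), had CVs of 0.0893, 0.0894 and 0.0924. The CV was below that of counting error alone at Crtc1 (0.0863 against 0.153), Tmbim6 (against 0.110) and Spcs2 (against 0.138). It was above at Tbc1d17 (against 0.0758), Evi5l (0.0803 against 0.0690) and Lrch4 (against 0.0770). These peaks were picked for the lowest CV, so their evenness cannot be read as a trait of their genes.

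The least even peaks were set apart by single libraries of lung at 50 nuclei. Wbp1, which encodes a protein that binds WW domains (chr6:83121381-83121750), had 82.7, 140, 87.6 and 75.2 RPM in brain. In lung it had 132, 87.1 and 133 RPM at 200 nuclei, and 91.0, 23.5 and 385 RPM at 50 nuclei. The highest and the lowest of the 10 values were both lung at 50 nuclei, replicates 3 and 2. Nrm, encoding the inner nuclear membrane protein nurim (chr17:35861213-35861676), had 62.7, 62.3, 90.3 and 72.03 RPM in brain and 30.01 to 66.8 RPM in 5 lung libraries, with 215 RPM in lung at 50 nuclei replicate 3. Hlcs, which attaches biotin to carboxylases (chr16:94313231-94313656), had 237 RPM in the same library and 23.5 to 81.0 RPM in the other lung libraries. Znhit1, a subunit of a chromatin remodeller that exchanges H2A.Z (chr5:136986753-136987103, shared with the start of Plod3), had 200 RPM in replicate 2 and 9.13 RPM in replicate 3 of lung at 50 nuclei. The ratios of 0.678, 0.963, 0.891 and 0.932 at these 4 peaks are means over such unequal libraries.

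**Figure D4:**
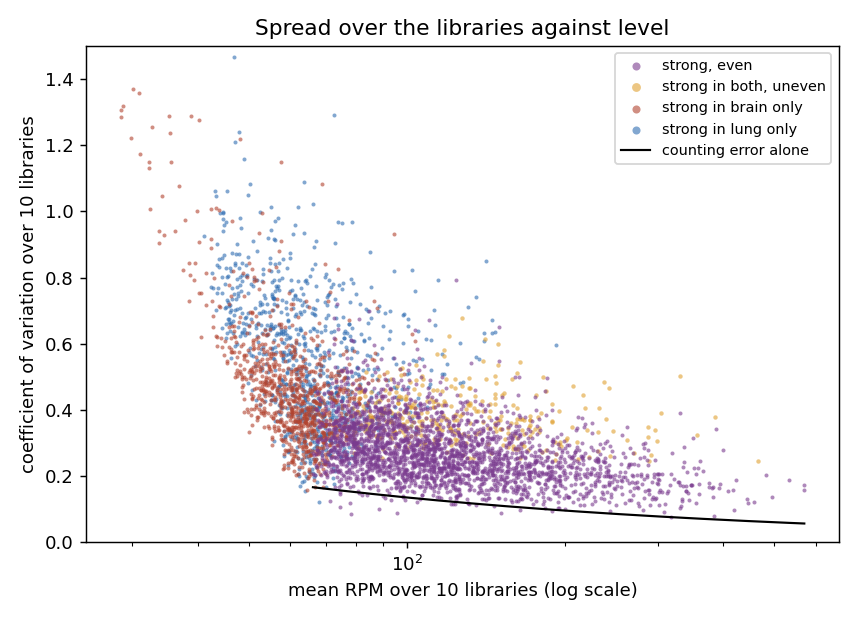
Coefficient of variation over the 10 libraries against mean RPM (log scale) for autosomal peaks strong in both tissues or in 1 tissue, with a line for counting error alone at the strong even peaks. The strong even peaks have a median of 0.260 against 0.128 from counting, and the 4 highest are Wbp1, Nrm, Hlcs and Znhit1.

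Genes that nearly every cell uses were often, but not always, among the genes with a strong even peak. Here a peak counted for every gene near it. Only peaks centred within 1000 bp of a listed start counted, or of an end where a gene had no listed start. Of 10988 autosomal coding genes with any such peak, 2608 (23.7%) had a strong even one. Among translation factors it was 10 of 16 genes with a peak, among splicing and RNA-binding factors 16 of 31, among chaperones 13 of 22, and among ubiquitin genes and ubiquitin-conjugating enzymes 12 of 17. Chromatin regulators had 14 of 27, ubiquitous transcription factors 9 of 21 and cytosolic ribosomal proteins 14 of 36. Setd5 counted as a gene with no peak, since its strong even peak lay at a gene end 28192 bp from its nearest listed start. Shares were near that of all genes for RNA polymerase II, general factors and Mediator (9 of 33, 27.3%) and for the proteasome (7 of 29, 24.1%). None of 10 neuronal and none of 11 endothelial marker genes with a peak had a strong even one. The neuronal Pclo had a peak strong in brain only, and the endothelial Tie1, Eng and Egfl7 had a peak strong in lung only. The rest of both lists had only peaks strong in neither tissue, so most of these markers missed the level limit in brain and in lung. These counts are a description, and level in both tissues was part of the choice.

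Hspa8, the constitutive HSC70 chaperone (chr9:40800692-40801452), had 321, 331, 290 and 329 RPM in brain, against 194, 268 and 305 RPM in lung. Hsp90b1, the HSP90 of the endoplasmic reticulum (chr10:86705324-86706207), averaged 221 ± 43.5 RPM in brain and 257 ± 38.1 RPM in lung, and Tcp1, a subunit of the CCT chaperonin (chr17:12915933-12916606), 207 ± 37.9 RPM in brain and 218 ± 29.3 RPM in lung (SD, n = 4 and 6 throughout). The tissues overlapped at all 3 chaperone genes. The translation initiation factors Eif4a1 (chr11:69672252-69672697), Eif5 (chr12:111537734-111538250) and Eif2s1 (chr12:78861388-78862268) averaged 209 ± 28.3, 176 ± 10.9 and 195 ± 38.5 RPM in brain and 254 ± 67.8, 225 ± 31.9 and 188 ± 38.0 RPM in lung.

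Among splicing factors, Hnrnpc, which binds nascent RNA (chr14:52103920-52104546), had 258, 352, 260 and 351 RPM in brain, against 237, 320 and 374 RPM in lung. The helicase gene Ddx5 (chr11:106788406-106789370) averaged 216 ± 65.3 RPM in brain and 260 ± 47.6 RPM in lung, and Hnrnpa2b1 (chr6:51469780-51470756) 207 ± 32.2 RPM in brain and 266 ± 34.9 RPM in lung. Polr2a (chr11:69758520-69759218) had 238, 198, 186 and 197 RPM in brain, against 182, 222 and 341 RPM in lung. Gtf2a1, a subunit of TFIIA (chr12:91589874-91590621), averaged 129 ± 22.5 RPM in brain and 151 ± 33.0 RPM in lung, and Ccnt2, a cyclin of P-TEFb (chr1:127773818-127774318), 124 ± 22.4 RPM in brain and 149 ± 52.6 RPM in lung.

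The proteasome genes Psmc6 (chr14:45329539-45330140), Psma2 (chr13:14612894-14613597) and Psmb3 (chr11:97703066-97703469) averaged 124 ± 13.9, 133 ± 18.9 and 128 ± 24.2 RPM in brain and 128 ± 21.6, 110 ± 25.4 and 110 ± 18.1 RPM in lung. Ube2d3 (chr3:135437936-135438625) averaged 197 ± 42.4 RPM in brain and 258 ± 43.5 RPM in lung, and Ube2b (chr11:52000418-52000952) 107 ± 31.9 RPM in brain and 137 ± 31.9 RPM in lung. Ube2n (chr10:95514672-95515329) had 130, 185, 126 and 153 RPM in brain and 132 to 195 RPM in 5 lung libraries, but 3.65 RPM, 2 reads, in lung at 50 nuclei replicate 3.

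The ribosomal protein gene Rps19 (chr7:24883919-24884768) had 283, 234, 233 and 254 RPM in brain, against 293, 342 and 369 RPM in lung, without overlap. Rpl27, another ribosomal protein gene (chr11:101442064-101442549), averaged 125 ± 29.3 RPM in brain and 144 ± 56.2 RPM in lung. Among transcription factors, Nfya (chr17:48409448-48410319) had 281, 378, 276 and 348 RPM in brain, against 268, 350 and 382 RPM in lung. Rfx1, a factor that binds X-box motifs (chr8:84066313-84066949), averaged 285 ± 61.6 RPM in brain and 302 ± 65.8 RPM in lung. Among chromatin genes, the cohesin subunit gene Smc3 (chr19:53599857-53600433) averaged 208 ± 35.5 RPM in brain and 171 ± 40.9 RPM in lung, the histone H3.3 gene H3f3b (chr11:116024079-116024844) 141 ± 30.5 RPM in brain and 195 ± 58.3 RPM in lung, and the acetyl-lysine reader gene Brd2 (chr17:34119211-34119711) 128 ± 5.05 RPM in brain and 151 ± 58.0 RPM in lung.

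The strong even peaks outside genes were few. Of those with no coding gene within 5000 bp, the 3 highest lay at chr6:122810682-122811578, 8319 bp from the nearest coding gene, at chr7:73617948-73618791, 76202 bp away, and at chr1:86487327-86488030, 38527 bp away. The first had 193, 318, 194 and 175 RPM in brain, against 80.3, 237 and 346 RPM in lung. The second averaged 178 ± 35.7 RPM in brain and 231 ± 43.7 RPM in lung, and the third 176 ± 30.6 RPM in brain and 168 ± 37.3 RPM in lung (SD, n = 4 and 6). No sequence or factor was examined at these peaks.

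The size of the pool was compared at the strong even peaks, since the choice used neither size nor its difference between tissues. edgeR's quasi-likelihood test covered 37466 peaks with at least 10 reads, the 2 mitochondrial peaks among them. At a Benjamini-Hochberg adjusted p under 0.05 it called no strong even peak for 200 against 50 nuclei averaged over tissues, in lung or brain. None was called for the interaction of tissue and size either, and 0.0% of all peaks were called in each of these comparisons. At an unadjusted p under 0.05, 129 strong even peaks (5.23%) passed for both tissues averaged, against 3.67% of all peaks, and 124 of the 129 were higher at 200 nuclei. Scaling moved this: 65 (2.63%) passed with other size factors, against 3.43% of all peaks and with 50 higher at 200 nuclei, and 63 (2.55%) with plain totals, against 3.52% and with 46 higher. With 1 library left out it ran from 40 (1.62%), without replicate 1 of brain at 50 nuclei, against 1.77% of all peaks. The highest was 382 (15.5%), without replicate 1 of lung at 50 nuclei, against 14.9% of all peaks, so all peaks moved alike. In lung 270 (10.9%) passed, against 8.2% of all peaks, but 167 (6.77%) against 7.53% with other size factors. In brain it was 19 (0.770%), against 1.14%, and for the interaction 49 (1.99%), against 4.15%. Which of the shares was above that of all peaks thus depended on the scaling for the average and for lung, and a peak missing the threshold does not show equal levels at both sizes. DESeq2 likewise called no strong even peak in any of the 4 comparisons.

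Fitted size differences were small at most strong even peaks. Averaged over tissues, the log2 fold change of 200 over 50 nuclei ran from -0.80 to 0.97, with a median of 0.18 and a median SE of 0.28. All 2467 lay within 1 log2 of 0, as did 78.1% of all peaks, whose median SE was 0.90. The part of the SE in this contrast was not tested. Other size factors or plain totals moved the median of all peaks by -0.10 and -0.11, and relative to it the median of the strong even peaks was 0.04, 0.03 and 0.03 with the 3 scalings. In lung the median was 0.24, which was -0.09 relative to all peaks, and in brain it was 0.11, which was 0.19 relative to all peaks. In lung, leaving out replicate 1 of the 50-nuclei libraries led to 31 called strong even peaks, all higher at 200 nuclei, with 0.673% of all peaks called, and leaving out replicate 3 led to 1, with 0.016% of all peaks called.

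The lowest unadjusted p averaged over tissues was at a peak outside genes, chr1:23255927-23256404. It had 158 and 161 RPM at 200 nuclei and 87.6 and 135 RPM at 50 nuclei in brain, and 139, 125 and 136 RPM at 200 nuclei and 42.7, 76.3 and 62.1 RPM at 50 nuclei in lung. Within each tissue the sizes did not overlap. Its log2 fold change was 0.97 with SE 0.26 (edgeR adjusted p = 1.00). Tle4, a Groucho corepressor (chr19:14597997-14598597), had 328 and 344 RPM at 200 nuclei and 219 and 285 RPM at 50 nuclei in brain, and 383, 313 and 358 RPM at 200 nuclei and 233, 235 and 259 RPM at 50 nuclei in lung. Its log2 fold change was 0.60 with SE 0.20, and again the sizes did not overlap within a tissue. Rwdd1 (chr10:34019493-34020033), Faf1 (a cofactor of VCP, chr4:109676180-109676829), Fbxw11 (an F-box protein, chr11:32642330-32642957) and Atl3 (a GTPase that shapes the endoplasmic reticulum, chr19:7494113-7494616) had log2 fold changes of 0.86, 0.94, 0.92 and 0.86, all with an adjusted p of 1.00 in edgeR.

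Whether evenness carried over to other libraries was examined by choosing peaks at 1 size and measuring them at the other. With the rule applied to the 50-nuclei libraries alone, 2047 peaks were chosen. In the 200-nuclei libraries 1769 of them (86.4%) kept a ratio of means between 0.67 and 1.5, against 75.4% of the 520 peaks strong in both tissues but uneven at 50 nuclei, 54.0% of the 1161 peaks strong in brain only, 41.2% of the 1136 strong in lung only and 34.2% of all peaks. Their log2 fold change of brain over lung at 200 nuclei had a median of -0.01, with quartiles of -0.26 and 0.23. edgeR called 122 of the 2047 (5.96%) at an adjusted p under 0.05, against 19.2% of the 520 strong uneven peaks and 15.2% of all peaks, although their median SE of 0.26 was smaller than the 0.78 of all peaks. The calls were 57 with brain higher and 65 with lung higher. That split was 96 and 35 with plain totals, 92 and 33 with edgeR's default filter, and 87 and 83 in DESeq2, so no direction can be read from it.

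The number called hung on single libraries. It was 9 without replicate 1 of brain at 200 nuclei, 60 without replicate 2 of brain, 65 without replicate 2 of lung, 60 without replicate 3 of lung and 176 without replicate 1 of lung at 200 nuclei. At like settings the share of all peaks called was 3.58%, 6.67%, 10.9%, 9.83% and 17.8%. With 50 nuclei as the test the calls nearly vanished: of 2465 peaks chosen at 200 nuclei, 1824 (74.0%) kept the ratio, edgeR called none against 0.0271% of all peaks, and 99 (4.02%) passed an unadjusted p under 0.05 against 7.7% of all peaks. Without replicates 2 and 3 of lung at 50 nuclei, which leaves 1 lung library assumed to vary as the brain ones do, 68 were called against 10.6% of all peaks, and DESeq2 on all 5 libraries called 4 against 1.06% of all peaks.

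**Figure D5:**
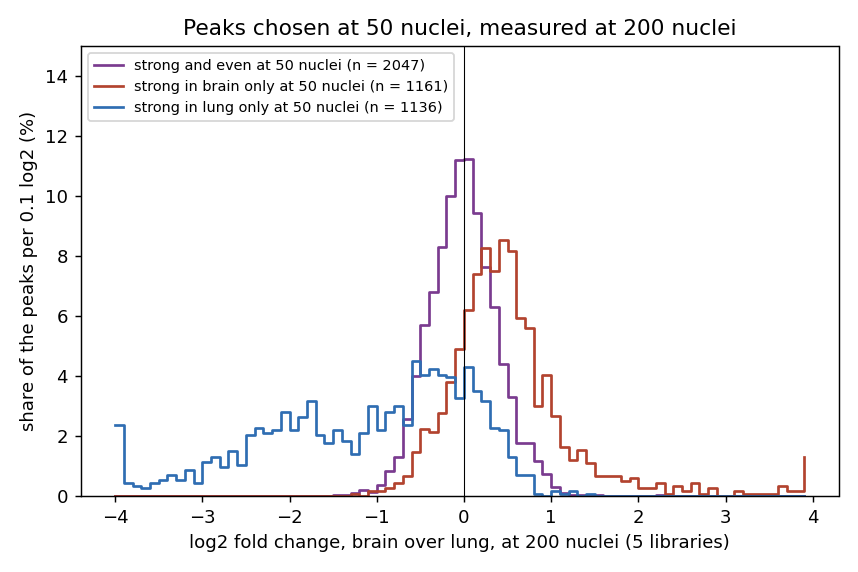
Log2 fold change of brain over lung in the 200-nuclei libraries (horizontal axis) for peaks that were strong and even, strong in brain only or strong in lung only in the 50-nuclei libraries, as a share of each set per 0.1 log2, with values past 4 placed in the outermost bins. The strong even set centres at a median of -0.01, and edgeR called 5.96% of it.

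Of the 122 peaks called at 200 nuclei 70 (57.4%) were among the 2467 chosen over all libraries, against 1828 of the 1925 not called. The choice of the 2467 also used the 200-nuclei libraries, so a lower share among called peaks is built into the rule and is no separate result. Of those called 91.0% lay at a gene start or end, against 92.5% of those not called. The following were picked after their values were seen, from among those with the lowest p in each direction. Not every such peak is given, and Eno4, with brain higher, is left out. A peak outside genes at chr17:37028687-37029085 had 75.2 and 94.5 RPM in brain and 12.7, 11.7 and 23.1 RPM in lung at 200 nuclei, but 87.6 and 84.6 RPM in brain and 27.01, 64.6 and 161 RPM in lung at 50 nuclei. The log2 fold change at 200 nuclei was 2.27 with SE 0.39 (edgeR adjusted p = 5.15e-05). Its even ratio of 1.02 at 50 nuclei was a mean over 3 unequal lung libraries. Nr4a1, an orphan nuclear receptor gene induced by many stimuli (chr15:101266524-101266948), had 42.6 and 51.6 RPM in brain and 88.1, 138 and 144 RPM in lung at 200 nuclei, but 112 and 103 RPM in brain and 136, 93.9 and 183 RPM in lung at 50 nuclei. Its log2 fold change at 200 nuclei was -1.48 with SE 0.31 (edgeR adjusted p = 0.000739), and here the brain libraries differed between sizes. Amz2, a metalloprotease gene (chr11:109425444-109426348), is among the 2467 and had 198 and 200 RPM in brain and 344, 356 and 387 RPM in lung at 200 nuclei, with a log2 fold change of -0.96 and SE 0.20 (edgeR adjusted p = 0.000717). At 50 nuclei it had 213 and 191 RPM in brain and 249, 138 and 288 RPM in lung.

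The limits of the rule pass through a continuum. Just inside the brain limit stood Smarcc1, a SWI/SNF subunit gene, with 67.31 RPM in brain, and Slc25a17 with 67.35 RPM, and just outside it Xxylt1 with 67.28 RPM and Abcb10 with 67.23 RPM. Just inside the lung limit stood Bicra with 64.89 RPM in lung and Mcoln1 with 64.90 RPM, and just outside it Enho with 64.72 RPM and Gopc with 64.70 RPM. At the ratio of 0.67, Arrdc4 and Slc66a2 were inside with 0.6702 and 0.6715, and a peak in the body of Actb, the beta-actin gene, and one at Sec14l1 were outside with 0.6692 and 0.6682. At the ratio of 1.5, Ssr3 and the non-coding Gm39918 were inside with 1.499 and 1.497, and Scai and Vmac outside with 1.502 and 1.504. Sec14l1 had 400 RPM in lung at 50 nuclei replicate 3 and 115 to 146 RPM in the other lung libraries, so 1 library placed it outside.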

How the data were processed

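The deposited file, made by the authors, holds unnormalized whole-number counts for 37513 peaks in 10 libraries, all used. Per the submitters' processing notes the tools named were MACS2 2.2.7.1, R 4.1.0, SAMtools 1.14, deepTools 3.1.3, Picard, Bowtie2 2.4.5, Trimmomatic 0.36 and bcl2fastq 2.20 with mm10 as the build, and their roles and order are not stated. The merging of peaks, the unit counted (reads or fragments), any removal of duplicates and any Tn5 shift were not given in the sources used here. Duplicates left in would raise the spread between libraries of few nuclei. Peak positions are printed as deposited, and whether starts count from 0 or 1 is not stated.

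RPM is the count per 1000000 reads in nuclear peaks. Peaks were placed on RefSeq genes of GRCm38.p6, the assembly of mm10, and RefSeq start windows of 300 bases were searched for motifs. Exons, introns and UTRs were not used. For its class, a peak went to a gene with a start or end within 1000 bp of the peak centre. Failing these and a long non-coding RNA start, it went to the gene body it overlapped. In the gene lists a peak counted only within 1000 bp of a listed start, or of an end where no start was listed. Counts were tested with edgeR 4.0.16 (quasi-likelihood, TMM, R 4.3.3), with a separate mean per tissue and pool size and Benjamini-Hochberg adjustment over all peaks with at least 10 reads. The 2 mitochondrial peaks were part of the fits, so the library sizes that TMM corrected held their reads. In the fit of all libraries TMM factors ran from 0.183 (brain at 200 nuclei replicate 2) to 3.06 (lung at 50 nuclei replicate 2). The plain totals were of nuclear reads only. Peaks chosen at 1 size were tested in a fit of the 5 libraries of the other size. DESeq2 1.42.0, other size factors, other filters, a replicate block and leaving out each library were alternatives. The common dispersion was 0.350 in the fit of all libraries, 0.132 at 200 nuclei and 0.766 at 50 nuclei.

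The peaks, gene lists and tests were chosen with earlier results of these data known. Named peaks are the 8 highest, 6 most and 4 least even, 6 with the lowest p for size, 3 widest and 3 narrowest, 3 highest with no coding gene within 5000 bp, up to 3 of each gene list, and the 2 on either side of each limit, and 1 peak of a gene list is not reported here. Replicate numbers were shared between groups. Correlations of the deviations from group means ran from -0.03 to 0.02 over 13 same-numbered pairs and from -0.03 to 0.03 over 24 other pairs. Nuclear peaks had a median of 120 reads over the 10 libraries, so counting error can hide a shared part. These values do not settle whether the numbers pair the libraries. Intervals and floors cover counting error only.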

Additional observations from a re-analysis of the deposited data

Results flagged for a closer look

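Among 142 sets of values, each the libraries of 1 tissue at a named peak or for a library summary, 16 had 1 library far from the others by Dixon's criterion, where chance flags about 1 set in 20. That rate does not apply to 4 of the 16, Wbp1, Nrm, Hlcs and Znhit1, which were named for their high CV. In 10 of the 16 the library was lung at 50 nuclei replicate 2 or 3. Their part in the results was not tested beyond the values without them given above.

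Replicate 3 of lung at 50 nuclei was far above the other lung libraries at Wbp1 (385 RPM, others 23.5 to 133 RPM), Nrm (215 RPM, others 30.01 to 66.8 RPM), Hlcs (237 RPM, others 23.5 to 81.0 RPM), Atp5d (283 RPM, others 45.5 to 114 RPM) and Smarcc1 (161 RPM, others 71.0 to 89.4 RPM). It was far below them at Ube2n (3.65 RPM, others 132 to 195 RPM). Replicate 2 was far above at Znhit1 (199.6 RPM, others 9.13 to 68.8 RPM) and Slc66a2 (229 RPM, others 62.1 to 119 RPM), and far below at Rpl27 (35.2 RPM, others 140 to 186 RPM) and at the peak shared by Atp6v1d and Eif2s1 (112 RPM, others 195 to 214 RPM). Replicate 1 of lung at 50 nuclei was far above at Bicra (117 RPM, others 44.0 to 69.8 RPM).

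In brain, replicate 2 at 200 nuclei was far above the other brain libraries at Dcaf6 (567 RPM, others 490 to 494 RPM) and at chr6:122810682-122811578 (318 RPM, others 175 to 194 RPM). Replicate 1 at 200 nuclei was far above at Ccnt2 (158 RPM, others 112 to 116 RPM). Replicate 1 of brain at 50 nuclei was far below at Tcp1 (151 RPM, others 225 to 228 RPM), and its median over the strong even peaks, 104 RPM, was far below those of the other brain libraries.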

How the results depend on the processing

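The number of strong even peaks was 2351 to 2505 when 1 library was left out, with 93.1% to 97.3% of the 2467 shared and 1859 (75.4%) chosen every time. It was 1287 with the top 5% in place of the top 10%, 1515 with a ratio of 0.83 to 1.2, 2475 with medians (2273 shared) and 2490 after TMM (2445 shared). Weighting both sizes equally gives the same means, since each tissue has as many libraries of either size. Over these choices and that without replicates 2 and 3 of lung at 50 nuclei, an alternative added after seeing the data, 91.8% to 92.6% lay at a gene start or end.

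For the size comparisons averaged over tissues, in brain and for the interaction, strong even peaks called stayed at 0 with each library left out, and in lung ran from 0 to 31. Without replicates 2 and 3 of lung at 50 nuclei 1 was called averaged over tissues and 1 in lung, with 0.0214% and 0.04% of all peaks called. Of the peaks chosen at 50 nuclei, 9 to 176 were called at 200 nuclei with 1 library left out (3.58% to 17.8% of all peaks) and 58 with a replicate block (7.14%), and DESeq2 called 170 (15.7%). The replicate block called 0 strong even peaks in the size comparisons. Whether the numbers pair the libraries is not known, so a call lost under the block cannot be read as a weaker or an absent effect. Of the peaks chosen at 200 nuclei, 0 were called at 50 nuclei with any library left out, 4 by DESeq2 (1.06% of all peaks) and 68 without both lung libraries (10.6%). A median of 38 to 56 reads per strong even peak in brain libraries, against 39 to 347 in lung ones, limits which differences could be seen.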
